A study of Homo sapiens with 6 samples.

Results

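The 3 libraries numbered replicate 2 were compared with the 3 numbered replicate 1, each pair within one treatment, to describe what A172 cells differed in besides the treatment. All 6 libraries of the series entered the comparison, 3 on each side. Across the pairs, genes of the extracellular matrix and of mitosis were higher in replicate 2, while genes of the NRF2 antioxidant response, p53 target genes and NF-kB genes were lower. Interferon-stimulated genes differed within the control pair in another way than within the duplex pairs.

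The study transfected A172, an established human glioblastoma cell line, with small RNA duplexes by lipid reagent and took RNA after 1 day. Each replicate number holds 1 library with a control miRNA, 1 with a miR-324-5p duplex (5p duplex) and 1 with a miR-324-3p.1 duplex (3p.1 duplex). Polyadenylated RNA was read as stranded 100 bp pairs on the BGISEQ-500. The labels do not say what the replicate number marks or whether replicates were separate cultures. The spread behind each p-value is therefore that of these libraries and may be technical. All libraries come from 1 cell line, and in bulk RNA fewer cells of a type and less RNA per cell cannot be told apart.

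NRF2 is a transcription factor that turns on genes for glutathione, thioredoxin and NADPH supply when electrophiles or oxidants disable its inhibitor KEAP1. NF-kB is held in the cytoplasm by IkB proteins, of which IkB-alpha (NFKBIA) is itself an NF-kB target, and the p53 target list holds genes of arrest and repair such as CDKN1A. Mitotic genes are kept low in resting cells by the DREAM complex and peak late in the cell cycle. Collagens, SPARC and periostin build and organise the extracellular matrix, which glioblastoma cells of mesenchymal character make in quantity.

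Values are TPM, a library's transcripts scaled by length to a fixed total, which keeps no read number and leaves the depth unknown. Between 18660 and 19070 symbols were listed per library and 13216 to 13536 genes reached 1 TPM. Of 20979 symbols, 13400 had a mean of at least 1 TPM and were tested. Differences are replicate 2 minus replicate 1 on the log2(TPM + 1) scale, which understates changes of low genes, and each set of 3 values is given in the order control, 5p duplex, 3p.1 duplex. The test was limma with treatment in the model, and a gene is said to rise or fall where its Benjamini-Hochberg adjusted p over all genes was under 0.05. An exact test of single genes could not serve here, since 3 pairs cannot go below p = 0.25 and 3 against 3 libraries not below 0.1. The control replicate 2 library stood apart by its interferon genes.

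In replicate 2, 1259 of 13400 genes changed (9.4%), of which 779 rose (5.81%) and 480 fell (3.58%). All 1259 moved the same way in the 3 pairs, against 51.4% of all genes. In 1084 of them the 3 libraries of one number lay apart from the 3 of the other, against 25.6% of all genes. The calls rest on these same differences, so neither count is separate support. Most differences were small, with a median size of 0.43 on the log2 scale among called genes, and 39 reached 2-fold (28 higher, 11 lower). With quantile normalization, which gives every library the same distribution, the split was 559 higher and 543 lower. It was 672 higher and 578 lower with median of ratios scaling, and 735 higher and 509 lower when rescaled without abundant and ribosomal genes. The size of the excess of rises thus depends on the scaling. A library left out takes its pair's difference with it, and without a 3p.1 duplex library the count was 169 or 170, while without any filter on low values it was 6. Leaving out a control library left 1660 or 1680 called genes. Without the control replicate 2 library the list counts were 17 rises and 3 falls for the matrix, 16 falls for NRF2, 6 falls for NF-kB, 21 rises and 1 fall for G2/M, and 1 rise and 13 falls for p53 targets.

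Without regard to the test, 3885 genes (29.0%) were higher in replicate 2 in all 3 pairs and 3006 (22.4%) were lower in all 3. The pairs share no library. Across the 13313 genes listed in all 6 libraries, the differences of the control and 3p.1 duplex pairs correlated at r = 0.600, those of both duplex pairs at r = 0.605, and those of the control and 5p duplex pairs at r = 0.386. These are descriptions across genes, which are not independent replicates. The median absolute difference was 0.167 in the control pair, 0.153 in the 5p duplex pair and 0.129 in the 3p.1 duplex pair. Of the summed squares of the same genes around their means, treatment held 52.2% (2 degrees of freedom), replicate number 32.4% (1 degree of freedom) and the rest 15.3% (2 degrees of freedom).

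**Figure D1:**
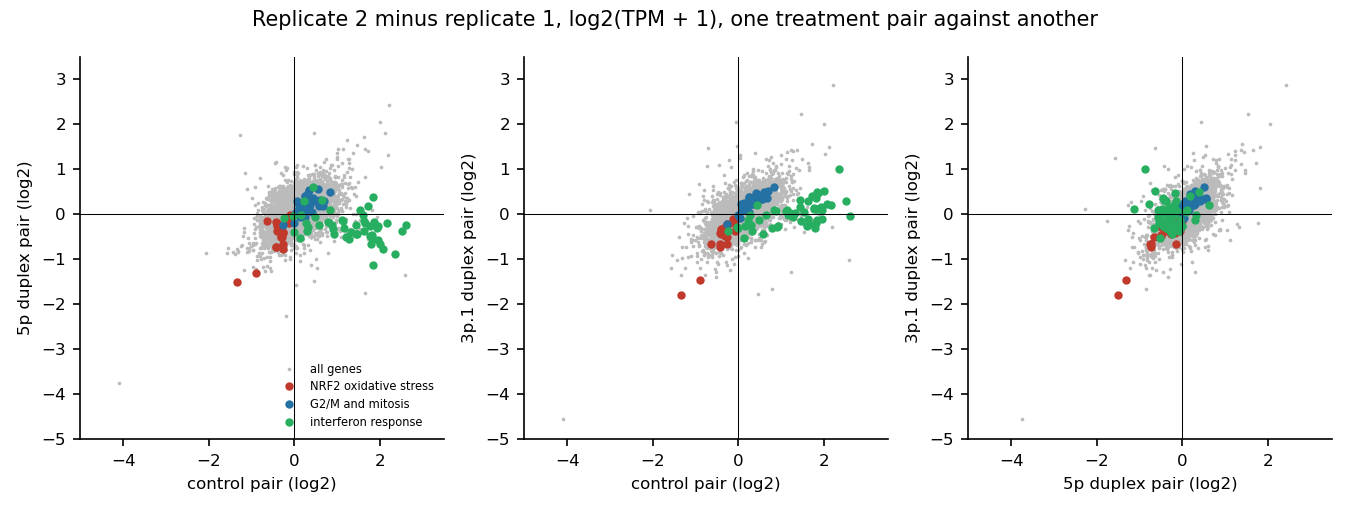
Each grey point is 1 of 13313 genes listed in all libraries, placed by its replicate 2 minus replicate 1 difference, log2(TPM + 1), in one treatment pair (x axis) and another (y axis), with the NRF2, G2/M and interferon lists in colour. NRF2 genes lie toward lower left and G2/M genes toward upper right in all 3 panels, whereas interferon genes stretch along the control axis, and the lone point near -4 in every panel is LCN2.

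Among extracellular matrix and integrin genes 17 of 37 measured rose and 2 fell, against 5.81% and 3.58% of all genes. POSTN encodes periostin, a matricellular protein that links collagen and integrins (minus strand, chr13:37562583-37598844 on GRCh38 in GENCODE 29). It stood at 21.0, 21.6 and 23.2 TPM in replicate 1 and 87.1, 92.5 and 96.8 TPM in replicate 2. The replicate 2 libraries lay about 4 times above their partners in each treatment, with no overlap (log2 difference 2.02 ± 0.06 (SE), adjusted p = 0.000157, linear fold 4.06).

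COL3A1, the fibrillar collagen of elastic tissues, was at 694, 601 and 656 TPM in replicate 1 and 1221, 1137 and 1239 TPM in replicate 2 (log2 difference 0.88 ± 0.05 (SE), adjusted p = 0.00248). SPARC, a collagen-binding glycoprotein and one of the most abundant transcripts here, was at 6640.4, 6457 and 6240.2 TPM in replicate 1 and 10284, 10082 and 9334 TPM in replicate 2 (log2 difference 0.62 ± 0.04 (SE), adjusted p = 0.00508). For both genes every replicate 2 library exceeded every replicate 1 library. COL1A1 and COL1A2, the 2 chains of type I collagen, rose by 1.16 and 0.66, from 24.9, 19.5 and 22.0 to 50.9, 51.8 and 49.2 TPM and from 782, 637 and 727 to 1145, 1060.4 and 1175 TPM. LUM, the small proteoglycan lumican, went from 2.95, 2.86 and 2.70 to 9.26, 8.94 and 8.93 TPM (log2 difference 1.39 ± 0.08 (SE), adjusted p = 0.00262). Its relative decorin (DCN), singled out after its values were seen, stood at 0.210, 0.190 and 0.190 TPM in replicate 1 and 1.88, 1.81 and 1.76 TPM in replicate 2 (difference 1.23). DCN reached the mean of 1 TPM needed for testing only through its replicate 2 values, so its call adds no support for the list.

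The median of the matrix list was 0.26, and 0.35, 0.28 and 0.19 in the 3 pairs, against 0.02 over all genes. The basement membrane chains COL4A1, LAMA4 and LAMB1 rose by 0.52, 0.60 and 0.35, the crosslinking enzymes LOX and LOXL2 by 0.56 and 0.38, fibrillin-1 (FBN1) by 0.45, and the thrombospondins THBS1 and THBS2 by 0.72 and 0.43. None of the integrin subunits measured was called, with ITGB1 at 1205, 1596 and 1325 TPM in replicate 1 and 1449, 1555 and 1406 TPM in replicate 2 (difference 0.10, adjusted p = 0.339). Against the run of the list, COL6A3, a chain of the microfibrillar type VI collagen, fell from 9.50, 11.9 and 9.74 to 5.70, 5.68 and 5.09 TPM (log2 difference -0.81 ± 0.09 (SE), adjusted p = 0.0124), and the metalloproteinase inhibitor TIMP3 fell by 0.54. Fibronectin (FN1) was at 10.9, 16.6 and 13.1 TPM in replicate 1 and 11.5, 12.7 and 10.1 TPM in replicate 2, with its numbers overlapping (adjusted p = 0.248). Without the 3p.1 duplex pair, 10 matrix genes rose and 1 fell.

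Beyond the matrix, the largest rises were in genes of varied function. TNNC1, troponin C of slow and cardiac muscle, was at 8.95, 7.83 and 5.71 TPM in replicate 1 and 45.4, 46.3 and 48.5 TPM in replicate 2 (log2 difference 2.51 ± 0.13 (SE), adjusted p = 0.00236). MME, the membrane metallopeptidase neprilysin, was at 66.2, 82.9 and 72.1 TPM in replicate 1 and 220.4, 220.5 and 217 TPM in replicate 2 (log2 difference 1.56 ± 0.07 (SE), adjusted p = 0.00173). FABP3, a fatty acid carrier of heart and muscle, rose by 1.43, from 10.1, 7.25 and 8.97 to 24.9, 24.8 and 25.8 TPM. In these 3 genes the numbers did not overlap. MYCT1 rose by 1.81 and CD300C, a myeloid-type receptor gene, by 1.49, both at lower levels (at most 18.4 and 10.5 TPM). The pseudogene PGM5P2 rose by 1.48, a value made uncertain by reads shared with its relatives. SNORA64, a small nucleolar RNA that a poly(A) protocol captures poorly, was listed in none of the replicate 1 libraries and at 14.7, 12.2 and 15.0 TPM in replicate 2. SNORA24 was at 12.5, 0 and 0 TPM in replicate 1 and 36.3, 14.9 and 37.1 TPM in replicate 2.

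**Figure D2:**
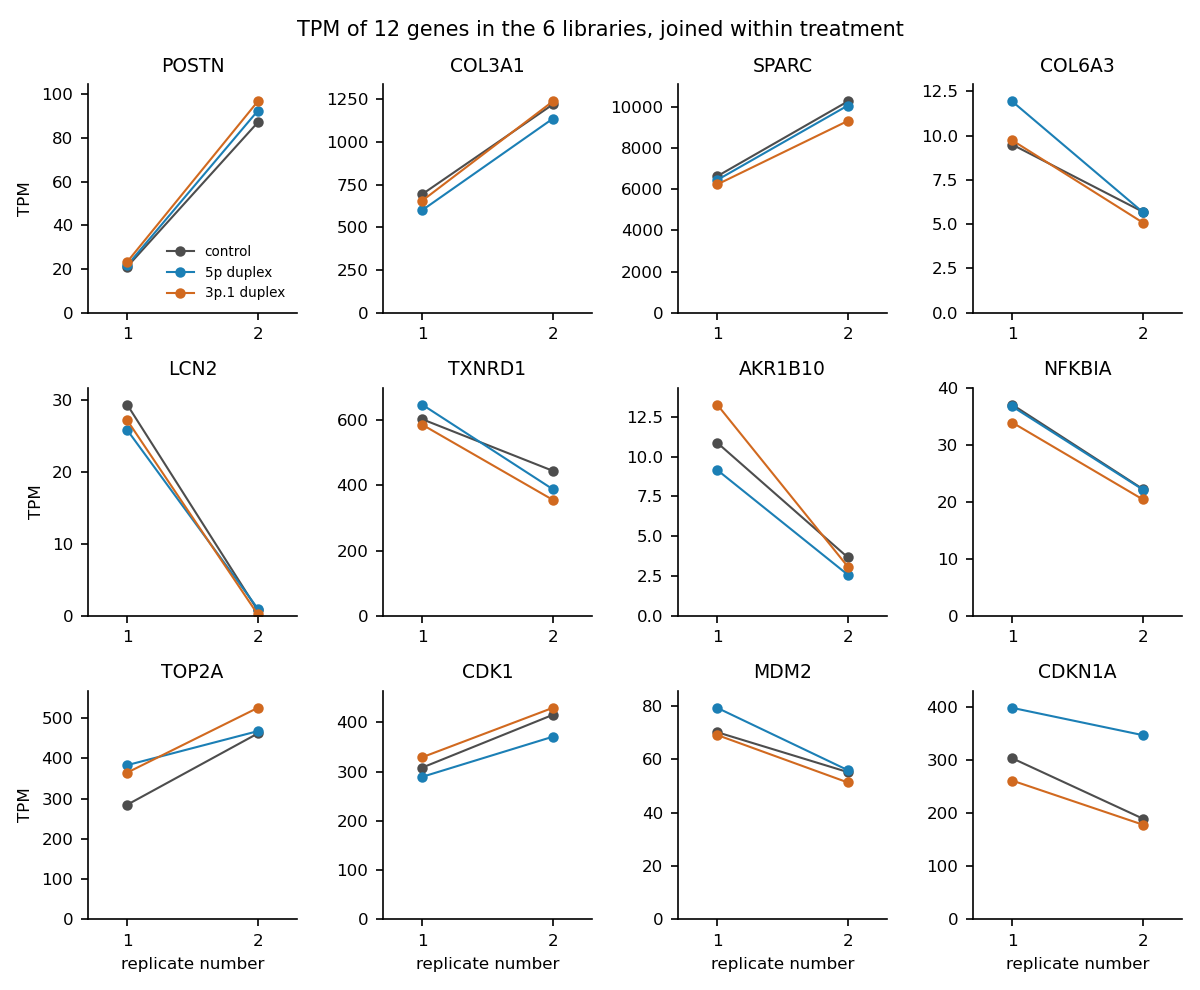
TPM (y axis, from 0) of 12 genes by replicate number (x axis), with each treatment's 2 libraries joined by a line. POSTN, COL3A1 and SPARC climb and LCN2 and NFKBIA drop along near-parallel lines. TXNRD1 drops less in the control pair than in the duplex pairs, and the 5p duplex libraries hold CDKN1A high at both numbers.

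The deepest fall belonged to LCN2, lipocalin-2, a secreted siderophore-binding protein of the acute-phase response (plus strand, chr9:128149071-128153455). LCN2 stood at 29.4, 25.9 and 27.2 TPM in replicate 1 and 0.770, 1.01 and 0.200 TPM in replicate 2 (log2 difference -4.13 ± 0.15 (SE), adjusted p = 0.000589). All 3 replicate 1 libraries carried over 25 TPM and none of replicate 2 much more than 1 TPM. KRT15, a keratin of basal epithelium, fell from 21.9, 12.5 and 14.3 to 7.43, 6.59 and 6.53 TPM, and PTPRN, a secretory granule phosphatase-like protein, from 12.5, 7.89 and 9.15 to 4.71, 4.47 and 3.45 TPM. The imprinted noncoding RNA H19 fell from 12.7, 8.75 and 13.0 to 4.49, 4.54 and 6.18 TPM. Falls of -0.95 in SNHG19, -0.94 in IFITM10, -0.93 in the actin-binding SVIL and -0.93 in LOC101927765 completed the 10 largest at a mean of 5 TPM or more, beside 2 aldo-keto reductases.

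Those reductases belong to the NRF2 programme, the list with the largest share of calls. All 20 NRF2 genes were measured, and 16 fell and 0 rose, against 3.58% and 5.81% of all genes. All 20 were lower in replicate 2 in each of the 3 pairs, against 22.4% of all genes. The list's median was -0.37, and -0.31, -0.41 and -0.43 in the pairs. AKR1B10, which reduces reactive aldehydes, was at 10.9, 9.16 and 13.3 TPM in replicate 1 and 3.67, 2.58 and 3.09 TPM in replicate 2 (log2 difference -1.55 ± 0.11 (SE), adjusted p = 0.00588). AKR1C1 was at 89.4, 114 and 154 TPM in replicate 1 and 48.0, 45.2 and 55.6 TPM in replicate 2 (log2 difference -1.22 ± 0.11 (SE), adjusted p = 0.0102), a value less sure because AKR1C2 and AKR1C3 are near-identical in sequence. AKR1C2 fell by 0.73 and AKR1C3 by 0.76 in the same fit.

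Thioredoxin reductase TXNRD1, which recycles thioredoxin with NADPH, stood at 603, 648 and 586 TPM in replicate 1 and 445, 388 and 356 TPM in replicate 2 (log2 difference -0.63 ± 0.07 (SE), adjusted p = 0.0131). GCLC and GCLM, the catalytic and modifier subunits of the rate-limiting enzyme of glutathione synthesis, were at 21.4, 20.8 and 23.7 and 29.4, 34.2 and 35.5 TPM in replicate 1 and at 15.5, 12.1 and 14.7 and 24.3, 21.2 and 24.6 TPM in replicate 2. Their differences were -0.61 and -0.48. In all 3 genes each replicate 1 library exceeded each replicate 2 library. The iron-storage chains FTH1 and FTL fell by 0.38 and 0.34, with FTH1 at 2707, 2209 and 2613 TPM in replicate 1 and 2054, 1696 and 2020.0 TPM in replicate 2. Cystine importer SLC7A11 (difference -0.57), thioredoxin TXN (-0.42), sulfiredoxin SRXN1 (-0.43), quinone reductase NQO1 (-0.33) and glutathione reductase GSR (-0.30) fell as well. So did the NADPH-yielding malic enzyme ME1 (-0.37), the pentose phosphate enzyme TKT (-0.36) and OSGIN1 (-0.49). PGD, PRDX1, HMOX1 and TALDO1 missed the threshold, and HMOX1, heme oxygenase 1, was at 28.4, 31.3 and 39.5 TPM in replicate 1 and 26.8, 29.9 and 30.4 TPM in replicate 2 (adjusted p = 0.226).

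The mRNA of NRF2 itself (NFE2L2) was at 102, 95.3 and 94.8 TPM in replicate 1 and 87.0, 86.0 and 81.7 TPM in replicate 2 and missed the threshold (difference -0.20, adjusted p = 0.0769). That of KEAP1 was at 74.9, 61.6 and 74.1 TPM in replicate 1 and 70.0, 67.7 and 75.2 TPM in replicate 2 (difference 0.02, adjusted p = 0.875). SQSTM1, an autophagy receptor that binds KEAP1 and is itself a known NRF2 target, was counted with the lysosome list and fell from 1853, 1926 and 1692 to 1241, 1256 and 1105 TPM (log2 difference -0.60 ± 0.04 (SE), adjusted p = 0.00590). Without the 3p.1 duplex pair 3 NRF2 genes were called, and 12 without the 5p duplex pair, with list medians of -0.39 and -0.39.

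Promoters of 2 fallen NRF2 genes are shown because they hold the core of the antioxidant response element that NRF2 binds. Windows run from 250 bases before to 50 after the RefSeq transcript start on GRCh38.p14 and are printed 5′ to 3′ on the gene's strand. TXNRD1 lies at chr12:104215529-104215828 on the plus strand and GCLM at chr1:93909381-93909680 on the minus strand. Capitals mark TGACNNNGC on either strand.
TXNRD1: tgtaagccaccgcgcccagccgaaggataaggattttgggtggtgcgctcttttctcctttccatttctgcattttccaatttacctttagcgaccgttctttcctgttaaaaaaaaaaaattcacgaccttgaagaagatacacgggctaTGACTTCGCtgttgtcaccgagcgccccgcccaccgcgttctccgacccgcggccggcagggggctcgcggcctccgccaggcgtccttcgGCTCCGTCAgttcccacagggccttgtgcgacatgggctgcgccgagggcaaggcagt
GCLM: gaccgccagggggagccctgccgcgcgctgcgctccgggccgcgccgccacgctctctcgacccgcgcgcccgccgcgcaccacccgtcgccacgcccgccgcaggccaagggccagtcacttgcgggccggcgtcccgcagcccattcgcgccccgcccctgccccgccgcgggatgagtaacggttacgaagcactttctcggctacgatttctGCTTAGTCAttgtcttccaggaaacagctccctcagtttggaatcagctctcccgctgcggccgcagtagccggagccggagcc
These letters occurred in 4 of the 13 NRF2 genes with a RefSeq window (GCLM, ME1, PGD and TXNRD1), against 16.1% of all 27305 genes with one. They also occurred in 9 of 26 p53 targets and in 8 of 34 G2/M genes, so they are not particular to the NRF2 list. A match is a description of the letters and does not show a bound site.

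NF-kB genes leaned lower as well. Of 25 genes on that list only 12 reached a mean of 1 TPM, and CXCL8, IL6, IL1B and TNF were among those that did not. Of the 12, 6 fell and none rose, against 3.58% and 5.81% of all genes, with medians of -0.26, -0.29 and -0.35 in the pairs. NFKBIA, the IkB-alpha inhibitor, stood at 37.1, 36.8 and 34.0 TPM in replicate 1 and 22.3, 22.2 and 20.4 TPM in replicate 2 (log2 difference -0.71 ± 0.06 (SE), adjusted p = 0.00876). The drop was close to equal in the 3 treatments, and the numbers did not overlap. CCL2, a monocyte chemokine, was at 109.8, 71.6 and 102 TPM in replicate 1 and 66.3, 43.9 and 54.5 TPM in replicate 2 (log2 difference -0.77 ± 0.06 (SE), adjusted p = 0.00876). BIRC3, an inhibitor of apoptosis, fell by 0.76, RELB, an NF-kB subunit, by 0.43, TNFAIP2 by 0.37 and SOD2, mitochondrial superoxide dismutase, by 0.31. TNFAIP3, the A20 feedback inhibitor, was at 7.05, 9.56 and 9.23 TPM in replicate 1 and 9.85, 9.62 and 8.56 TPM in replicate 2, with overlapping numbers (adjusted p = 0.558). Without the 3p.1 duplex pair 2 NF-kB genes were called, and 3 without the 5p duplex pair.

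The NFKBIA window (chr14:35404700-35404999, minus strand, same build and limits) is shown because it holds 2 matches to GGANTTTCC, an NF-kB site core, in capitals.
NFKBIA: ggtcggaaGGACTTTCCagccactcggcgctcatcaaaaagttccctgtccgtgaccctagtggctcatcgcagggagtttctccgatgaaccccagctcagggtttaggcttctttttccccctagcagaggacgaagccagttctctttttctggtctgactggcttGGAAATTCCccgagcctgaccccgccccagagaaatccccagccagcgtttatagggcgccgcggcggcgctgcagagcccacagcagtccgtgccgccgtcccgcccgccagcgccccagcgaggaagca
Among all genes with a window 2.01% held these letters on either strand, and 5 of 9 NF-kB genes did (NFKB1, NFKB2, NFKBIA, NFKBIZ and TNFAIP3). Of those 5, NFKBIA was the one that fell.

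Mitotic genes rose. Of 40 G2/M genes measured, 20 rose and 1 fell, against 5.81% and 3.58% of all genes. In all 3 pairs 34 were higher in replicate 2, against 29.0% of all genes. The median was 0.28, and 0.29, 0.20 and 0.30 in the pairs. TOP2A, the topoisomerase that untangles chromosomes, was at 285, 383 and 365 TPM in replicate 1 and 462, 468 and 526 TPM in replicate 2 (log2 difference 0.50 ± 0.08 (SE), adjusted p = 0.0253). The proliferation marker MKI67 was at 72.1, 92.6 and 83.2 TPM in replicate 1 and 109, 116 and 119 TPM in replicate 2 (log2 difference 0.47 ± 0.07 (SE), adjusted p = 0.0220). CENPE, a kinetochore motor, had the smallest p of the list and was at 33.5, 45.8 and 46.5 TPM in replicate 1 and 60.3, 65.2 and 71.0 TPM in replicate 2 (log2 difference 0.64 ± 0.08 (SE), adjusted p = 0.0147). CDK1, the kinase that drives entry into mitosis, was at 308, 289 and 329 TPM in replicate 1 and 416, 371 and 429.8 TPM in replicate 2 (log2 difference 0.39 ± 0.05 (SE), adjusted p = 0.0152).

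In these 4 genes the numbers did not overlap. The spindle checkpoint kinases BUB1B and TTK rose by 0.40 and 0.27, the Aurora kinases AURKA and AURKB by 0.29 and 0.38, the kinesin KIF11 by 0.40, and the ubiquitin-conjugating enzyme UBE2C by 0.41. Securin (PTTG1), which holds sister chromatids together until anaphase, fell instead, from 665, 656 and 701 to 550.2, 552 and 605 TPM (log2 difference -0.24 ± 0.05 (SE), adjusted p = 0.0322). Cyclin B1 (CCNB1) was at 408, 417 and 420.5 TPM in replicate 1 and 436, 428 and 468 TPM in replicate 2 (difference 0.10, adjusted p = 0.255). FOXM1, a transcription factor of the mitotic programme, was at 114, 113 and 128 TPM in replicate 1 and 117, 117 and 121 TPM in replicate 2, and its numbers overlapped (adjusted p = 0.976). Without the 3p.1 duplex pair 1 member was called, at a list median of 0.25.

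CDK1 and KIF11 windows are shown for the motifs that recur in promoters of mitotic genes. They lie at chr10:60778081-60778380 and chr10:92592880-92593179, both on the plus strand, in the same build and limits. Capitals mark TTTGAA, the cell cycle homology region, and CCAAT, either of them on either strand.
CDK1: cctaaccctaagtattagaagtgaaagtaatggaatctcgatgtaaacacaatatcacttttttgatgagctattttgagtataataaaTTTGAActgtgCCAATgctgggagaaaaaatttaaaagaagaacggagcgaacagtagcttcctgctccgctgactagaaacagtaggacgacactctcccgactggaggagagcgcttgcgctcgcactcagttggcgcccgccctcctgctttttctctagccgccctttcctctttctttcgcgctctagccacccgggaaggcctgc
KIF11: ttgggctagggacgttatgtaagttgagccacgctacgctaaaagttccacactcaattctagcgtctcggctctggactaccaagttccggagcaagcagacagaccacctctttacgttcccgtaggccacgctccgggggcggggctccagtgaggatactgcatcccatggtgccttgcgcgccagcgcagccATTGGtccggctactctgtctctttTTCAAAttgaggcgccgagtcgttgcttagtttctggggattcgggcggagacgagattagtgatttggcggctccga
TTTGAA occurred in 24 of 34 G2/M genes with a window and in 18.2% of all genes, and CCAAT in 28 of 34 and in 39.7%. Promoters of mitotic genes are known for these motifs, so the counts describe the list and not its change.

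Genes of the earlier cell cycle leaned higher, with calls in both directions. In all 3 pairs 25 of 44 G1/S and replication genes were higher and 6 lower, against 29.0% and 22.4% of all genes. The list's median was 0.09, and 0.15, 0.09 and 0.04 in the pairs. Of the 44, 7 rose and 3 fell, against 5.81% and 3.58% of all genes. These counts were 3 and 3 without a control library, 3 and 1 without a 5p duplex library and 0 without a 3p.1 duplex library. RRM2, a subunit of ribonucleotide reductase, was at 223, 237 and 263 TPM in replicate 1 and 338, 311 and 374 TPM in replicate 2 (log2 difference 0.50 ± 0.06 (SE), adjusted p = 0.0133). PCNA, the replication clamp, went the other way, from 546, 473 and 567 to 462, 381 and 486 TPM (log2 difference -0.26 ± 0.05 (SE), adjusted p = 0.0316), though its numbers overlapped across treatments. The recombination gene BRCA1 rose by 0.42, the checkpoint adaptor CLSPN by 0.34, and CDC45, RRM1 and the flap nuclease FEN1 by 0.28, 0.27 and 0.25. The uracil glycosylase UNG and the helicase subunit MCM3 fell by 0.34 and 0.26. Of 15 histone genes measured 2 rose and 1 fell, against 5.81% and 3.58% of all genes. In all 3 pairs 4 were higher and 5 lower. HIST1H1C, a linker histone, fell from 287, 231 and 291 to 189, 138 and 169 TPM, while HIST2H4A and HIST1H4H rose by 0.58 and 0.68, 2 genes with near-identical copies. No member passed the test among 7 CDK inhibitors and RB family genes or 9 D-type cyclin and MYC genes, against 9.4% of all genes. At that share lists this small can hold no call, so this does not show them unchanged. Cyclin D1 (CCND1) was at 337, 359 and 464 TPM in replicate 1 and 449, 403 and 491 TPM in replicate 2 (difference 0.22, adjusted p = 0.112). MYC was at 33.2, 30.7 and 40.1 TPM in replicate 1 and 33.9, 29.3 and 38.1 TPM in replicate 2 (adjusted p = 0.727).

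p53 targets moved opposite to the mitotic genes. Of 31 measured, 11 fell and 1 rose, against 3.58% and 5.81% of all genes. In all 3 pairs 23 were lower in replicate 2, against 22.4% of all genes. The median was -0.25, with -0.22, -0.21 and -0.25 in the pairs. MDM2, a ubiquitin ligase, was at 70.2, 79.4 and 69.2 TPM in replicate 1 and 55.2, 56.0 and 51.3 TPM in replicate 2 (log2 difference -0.42 ± 0.06 (SE), adjusted p = 0.0211), with no overlap. CDKN1A, the p21 inhibitor of cyclin-dependent kinases, was at 303, 398 and 261 TPM in replicate 1 and 189, 347 and 178 TPM in replicate 2 (log2 difference -0.48 ± 0.09 (SE), adjusted p = 0.0357). Its numbers overlapped, because the 5p duplex libraries were the 2 highest of the 6. SESN1, a sestrin that restrains mTORC1, was at 24.4, 30.9 and 17.5 TPM in replicate 1 and 17.0, 21.2 and 12.4 TPM in replicate 2 (log2 difference -0.50 ± 0.06 (SE), adjusted p = 0.0163).

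ZMAT3, DDB2, RRM2B, BBC3 and BTG2 fell by 0.49, 0.34, 0.40, 0.60 and 0.45. They serve splicing control, nucleotide excision repair, nucleotide supply, apoptosis and arrest. CCNG1 and FDXR also fell, by 0.28 and 0.49. POLH, a translesion polymerase, rose from 22.6, 26.0 and 22.5 to 31.2, 30.5 and 30.2 TPM (log2 difference 0.36 ± 0.07 (SE), adjusted p = 0.0367). BAX, GDF15 and TNFRSF10B missed the threshold, with differences of -0.15, -0.35 and -0.08. Without the 3p.1 duplex pair no p53 target was called, at a list median of -0.25, and without the control pair 13 fell.

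**Figure D3:**
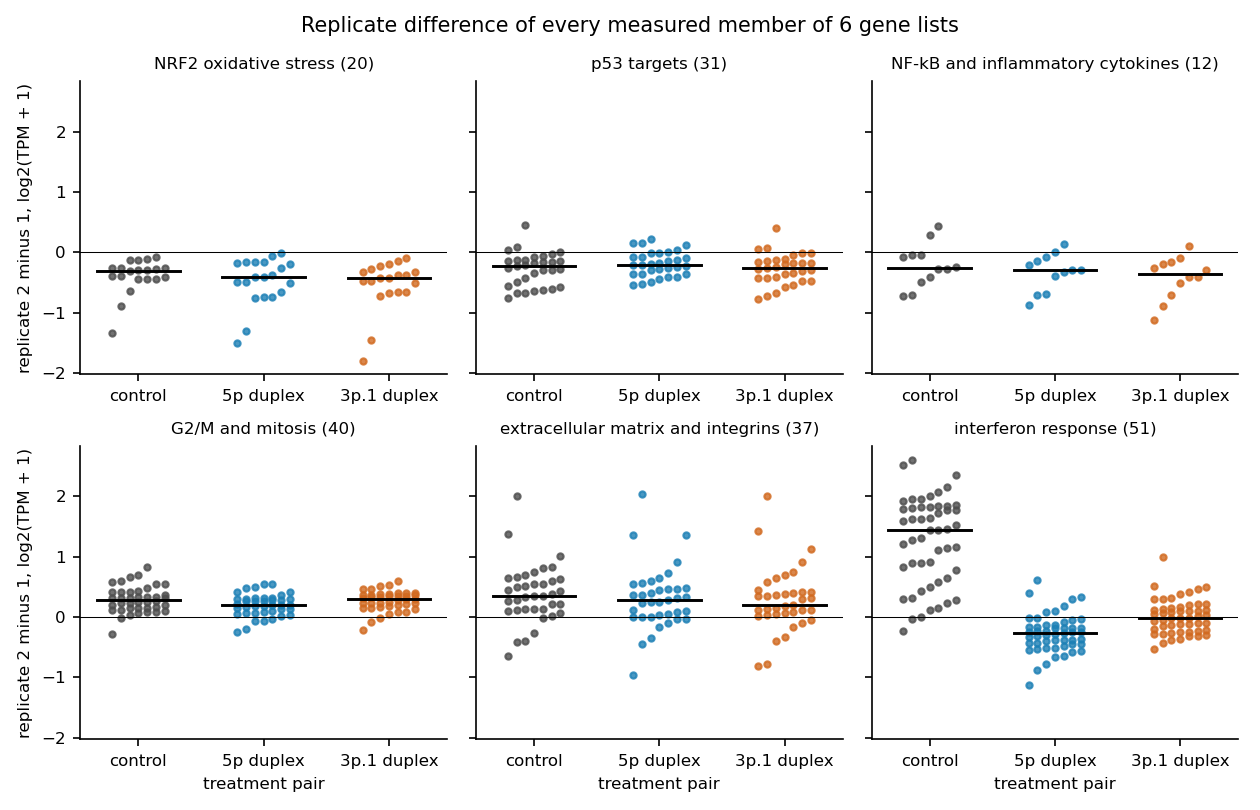
Replicate 2 minus replicate 1 difference, log2(TPM + 1), of every measured member (point) of 6 gene lists in each treatment pair (x axis), with black lines at the medians. The first 5 lists sit at similar medians in the 3 pairs, and the interferon list is at 1.45 in the control pair against -0.26 and -0.01 in the duplex pairs.

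Cytosolic ribosomal proteins and proteasome genes leaned lower by small amounts. Of 61 cytosolic ribosomal proteins, 10 fell, none rose and 43 were lower in all 3 pairs, against 3.58%, 5.81% and 22.4% of all genes. Their summed level was 101660.0, 104600.0 and 101980.0 TPM in replicate 1 and 86392, 95209 and 92839 TPM in replicate 2. RPL12 fell most surely, by 0.39, from 2610.5, 2773 and 2583 to 2084, 2109 and 1889 TPM. With quantile normalization 1 ribosomal protein was called, as with no variance trend, against 7 without a control library, 5 or 6 without a 5p duplex library and 0 without a 3p.1 duplex library. Of 27 proteasome genes 5 fell (3.58% of all genes) and 24 were lower in all 3 pairs (22.4% of all genes). The falls were in the core subunits PSMA7 (-0.27), PSMA3 (-0.24), PSMB2 (-0.25) and PSMB7 (-0.21) and the ubiquitin receptor PSMD4 (-0.24). No proteasome gene was called without a 3p.1 duplex library or with no variance trend, and 3 were without a control or a 5p duplex library. Oxidative phosphorylation had 4 falls among 49 genes, or 8.16% against 3.58% of all genes, with UQCRC2 of complex III at 89.5, 103 and 85.4 TPM in replicate 1 and 64.6, 71.5 and 66.9 TPM in replicate 2 (log2 difference -0.44 ± 0.06 (SE), adjusted p = 0.0191) and smaller falls in NDUFB5, NDUFB9 and COX7B. Its calls came to 0 without a 3p.1 duplex library, 2 or 3 without a 5p duplex library and 1 with no variance trend. Mitochondrial ribosomal proteins had 1 rise (MRPL17) and no fall among 37, against 5.81% and 3.58% of all genes.

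Small nucleolar RNA host genes SNHG8 and SNHG3 fell by 0.48 and 0.29, 2 of 12 measured, against 3.58% of all genes. Among splicing factors SRSF2, HNRNPK and HNRNPC fell (9.68% against 3.58% of all genes), and 28 of 31 were not called. Translation factors and ribosome biogenesis genes had 1 rise each and no fall among 23 and 29 measured, against 5.81% and 3.58% of all genes. The rises were in EIF3C (0.21) and POLR1A (0.38). In the lysosome list 4 of 25 genes fell, or 16.0% against 3.58% of all genes. Besides SQSTM1 they were the proteases CTSD (-0.46) and CTSB (-0.25) and the sphingolipid activator precursor PSAP (-0.27). Of 7 nuclear noncoding RNAs OIP5-AS1 rose by 0.48 and MIAT fell by 0.33, against 5.81% and 3.58% of all genes. Without a 3p.1 duplex library 1 small nucleolar RNA host gene and 1 lysosome gene were called, and none of the splicing, translation factor, ribosome biogenesis or nuclear noncoding lists.

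In sterol synthesis 4 of 28 genes rose and none fell, against 5.81% and 3.58% of all genes, and the list's medians were 0.15, 0.03 and 0.17 in the pairs. DHCR7, a reductase late in cholesterol synthesis, rose by 0.47, ACAT2 by 0.38 and FDPS, the farnesyl diphosphate synthase, by 0.28. The hypoxia and glycolysis list also had 4 rises (12.1% against 5.81% of all genes) and no fall among 33 genes, but a median of -0.02. Its calls were P4HA1, a collagen prolyl hydroxylase, at 95.6, 107 and 105 TPM in replicate 1 and 162, 149 and 156 TPM in replicate 2 (log2 difference 0.60 ± 0.07 (SE), adjusted p = 0.0132), and ALDOC, ADM and ENO2. In the integrated stress response 1 of 26 genes rose and 3 fell (3.85% and 11.5%, against 5.81% and 3.58% of all genes). TRIB3 fell by 0.59 and DDIT3 (CHOP) by 0.31, SLC7A11 fell as above, and the folate enzyme MTHFD2 rose by 0.35. Of 20 endoplasmic reticulum chaperones CALR, MANF and CRELD2 rose (15.0%) and DNAJB9 and HERPUD1 fell (10.0%). Of 17 heat shock genes only HSPA8 passed the test (0.30), or 5.88%, near the 5.81% of all genes. Without a 3p.1 duplex library 1 hypoxia gene was called and none of the sterol, integrated stress, chaperone or heat shock lists.

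YAP and TGF-beta targets split, 3 rising and 4 falling among 22, against 5.81% and 3.58% of all genes. CTGF and TAGLN rose by 0.54 and 0.35. The TGF-beta feedback inhibitors PMEPA1, SMAD7 and SKIL fell by 0.55, 0.46 and 0.30, and the BMP target ID1 by 0.37. Immediate early genes had 4 falls among 23, or 17.4% against 3.58% of all genes, and no rise. The falls were in ATF3 (-0.99), KLF2 (-0.67), JUNB (-0.59) and the ERK phosphatase DUSP4 (-0.56). ATF3, a stress-induced factor, stood at 4.55, 5.49 and 6.80 TPM in replicate 1 and 2.34, 1.90 and 2.73 TPM in replicate 2, with each replicate 1 library above each of replicate 2. In the actin list TPM1 and CALD1 rose and FHL2 fell among 20, or 10.0% and 5.0%, against 5.81% and 3.58% of all genes. Without a 3p.1 duplex library 2 YAP and TGF-beta targets rose, 1 immediate early gene fell and no actin gene was called. None of 3 metallothionein-list genes measured was called, against 9.4% of all genes. MT2A was at 1589, 1182 and 1451 TPM in replicate 1 and 2296, 1972 and 1589 TPM in replicate 2 (difference 0.47, adjusted p = 0.0524).

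**Figure D4:**
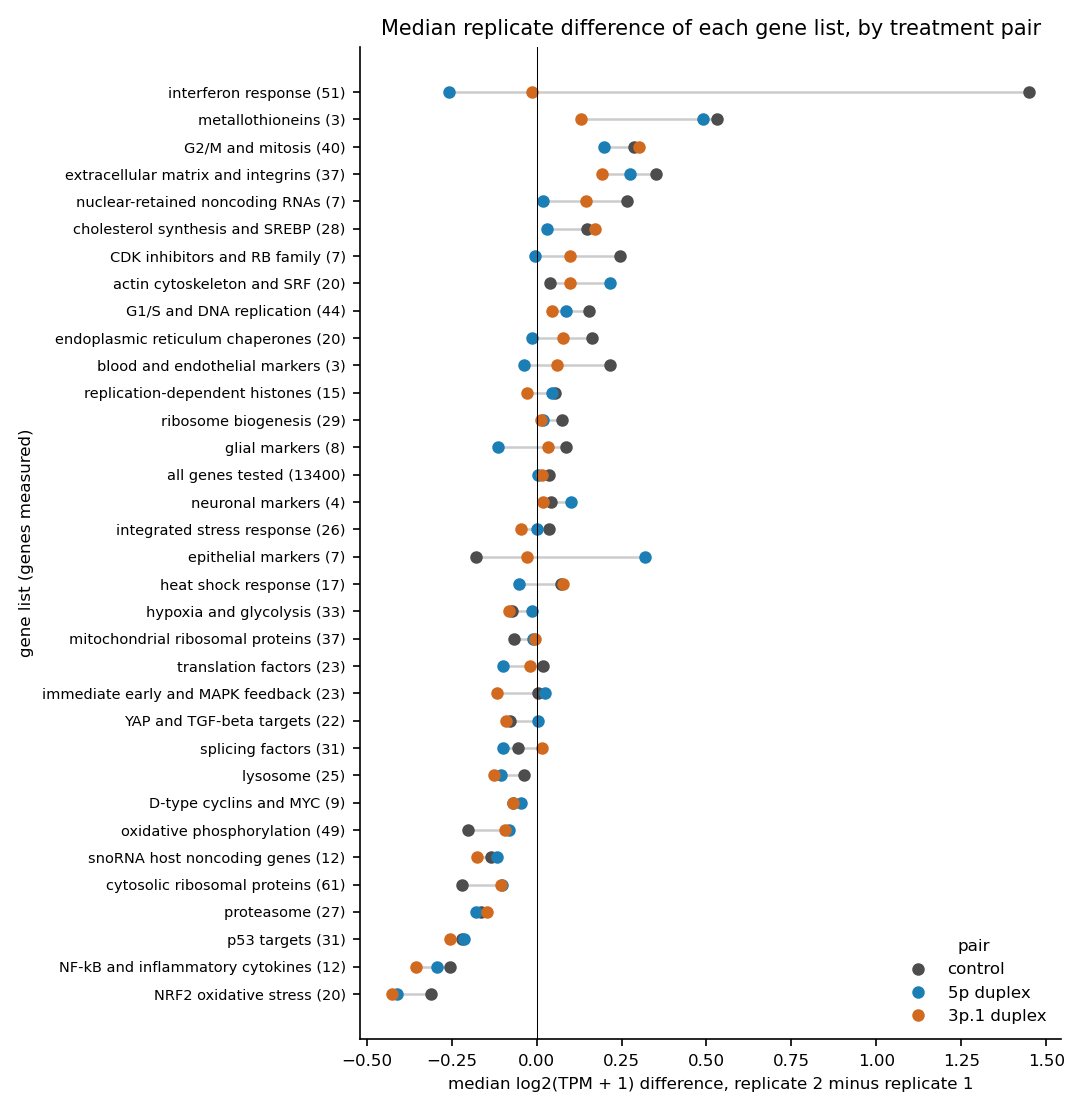
Median replicate 2 minus replicate 1 difference, log2(TPM + 1) (x axis), of each gene list (rows, genes measured in brackets) in the control, 5p duplex and 3p.1 duplex pairs (points). The NRF2, NF-kB and p53 lists lie below -0.2 in all 3 pairs, and the interferon list has the widest span.

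The labelled cell type was checked against markers of glia and other cells. Of 18 glial markers 8 reached 1 TPM, among them VIM, CD44, NES and SOX9, whereas GFAP was under 1 TPM and S100B, AQP4 and OLIG1 were at 0 in all 6 libraries. Intermediate filament gene NES rose by 0.41, and SOX9 and the hyaluronan receptor CD44 fell by 0.35 and 0.24. The summed glial markers ran from 5848 to 6615 TPM in replicate 1 and from 6711 to 6937 TPM in replicate 2. Neuronal markers (4 of 16 at 1 TPM, DCX, ELAVL4 and SLC17A6 at 0) summed to 485 to 577 and 585 to 624 TPM. NEFL rose by 0.38, while GAD1, SYT1 and TUBB3 were not called (-0.16, 0.01 and 0.02). Epithelial markers (7 of 14) summed to 935 to 1229 and 1062 to 1365 TPM. KRT8 and KRT5 rose by 0.49 and 0.63, KRT5 at no more than 2.23 TPM. But 4 of the 7 were below 0 on average over the pairs, and the list's median was -0.002. Blood and endothelial markers (3 of 14, CD3E, AIF1 and HBB at 0) summed to 61.8 to 72.5 and 53.03 to 78.2 TPM, and none of the 3 was called, against 9.4% of all genes. The part of these markers in the matrix and mitotic differences was not tested.

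Interferon-stimulated genes set the control pair apart. On average over the pairs 1 of 51 rose (IFITM2, by 0.41) and none fell, against 5.81% and 3.58% of all genes. But 48 were above 0 in the control pair, against 7 in the 5p duplex pair and 25 in the 3p.1 duplex pair. Over all 13400 genes, 7487, 6829 and 7126 were above 0 in these pairs. Below 0 were 44 of the 51 in the 5p duplex pair and 26 in the 3p.1 duplex pair. ISG15, the ubiquitin-like modifier, was at 91.5, 21.6 and 20.1 TPM in replicate 1 and 289, 18.9 and 17.2 TPM in replicate 2. IFIT3 was at 80.6, 21.8 and 20.5 TPM in replicate 1 and 363, 19.1 and 23.9 TPM in replicate 2. MX2, an antiviral GTPase, was at 44.0, 11.4 and 7.21 TPM in replicate 1 and 174, 7.32 and 7.76 TPM in replicate 2. For all 3 genes the control replicate 2 library was the highest of 6 and the control replicate 1 library the second, above every duplex library.

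A model term for the control difference minus the mean of both duplex differences called 154 of 13400 genes (1.15%), of which 122 were positive (0.91%). This fit has 1 residual degree of freedom and, on simulated data, called more unchanged genes than its threshold allows. Of the interferon list 38 members were called, all positive, with 1.85 ± 0.14 (SE) for ISG15 (adjusted p = 0.0000168), 2.15 ± 0.17 for IFIT3 (adjusted p = 0.0000223) and 2.13 ± 0.17 for the deconjugating protease USP18. RSAD2, though at 17.2, 1.80 and 0.570 TPM in replicate 1 and 91.9, 0.520 and 2.14 TPM in replicate 2, was not called (adjusted p = 0.0535), and neither were HLA-B, HLA-C and B2M. No member of the NRF2, G2/M, p53, matrix or NF-kB lists was called by this term, which does not show that their differences were equal in the pairs. Without the control pair the interferon median was -0.14, with 7 members falling and 2 or 3 rising, by the library left out.

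Transcript length and GC content moved with the replicate difference, and not alike in the pairs. Across 12955 genes with a GENCODE 29 transcript, Spearman's rho of the difference with length was 0.283 in the control pair, -0.0789 in the 5p duplex pair and 0.117 in the 3p.1 duplex pair. With GC content it was -0.204, 0.443 and 0.00892. In the 2591 genes of highest GC content the median difference was -0.06 in the control pair and 0.20 in the 5p duplex pair. With length and GC taken out of each library, 2513 of 12955 genes were called, among them 1199 of the 1259. Of the 2513, 1557 were higher and 956 lower, against 779 and 480 of 13400 without this correction, so calls grew over all genes. The list counts were 16 falls for NRF2, 31 rises and 1 fall for G2/M, 16 falls and 1 rise for p53 targets and 20 rises and 4 falls for the matrix. Medians of these lists became -0.36, 0.29, -0.24 and 0.26.

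**Figure D5:**
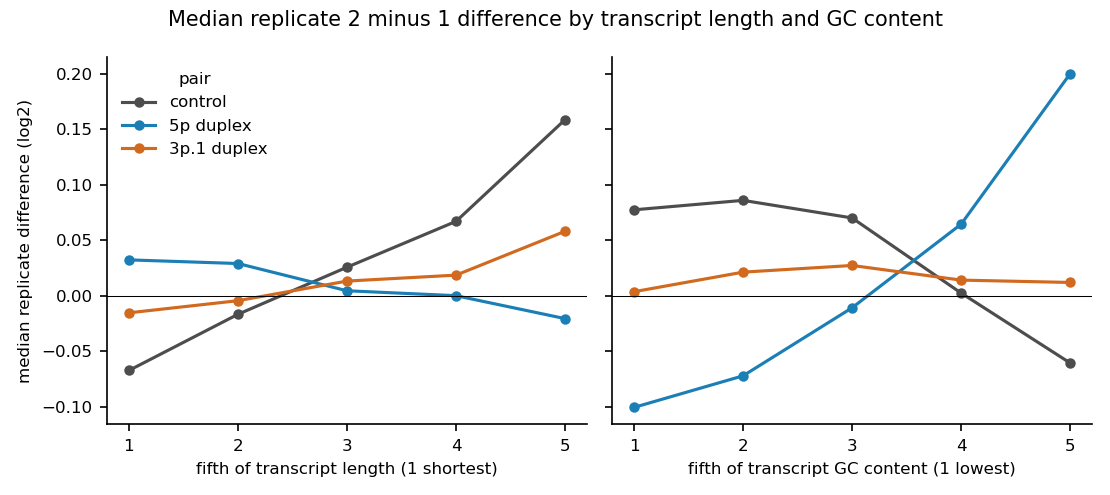
Median replicate 2 minus replicate 1 difference (y axis, log2) of genes in 5 equal bins of transcript length (left) and GC content (right), by treatment pair. The control and 5p duplex lines slope in opposite directions in both panels, and the 3p.1 duplex line is nearly flat against GC content.

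The replicate difference enters the error of the treatment comparisons. With groups of 2 libraries and no term for the number, 62 genes differed between 5p duplex and control (0.463%) and 2 between 3p.1 duplex and control (0.0149%). With replicate number as a block these counts were 367 and 30, and they held all 62 and both of the genes called without it.

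Genes often used for scaling were not called. ACTB was at 7296, 6536 and 7291 TPM in replicate 1 and 7471, 8367 and 7597 TPM in replicate 2 (difference 0.15, adjusted p = 0.220). GAPDH was at 3661, 3419 and 3437 TPM in replicate 1 and 3060.0, 3295 and 3043 TPM in replicate 2 (difference -0.16, adjusted p = 0.107), with every replicate 1 library above every replicate 2 library.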

How the data were processed

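Per the labels' protocols, oligo-dT selected RNA of A172 cells was sequenced. The authors deposited TPM per gene symbol for each library, and RSEM and GRCh38 are named per the submitters' processing notes, while their versions, the aligner and the annotation were not given in the sources used here. Repeated symbols (21 to 23 per library) were summed and unlisted symbols taken as 0. Because TPM adds up to one fixed total, the depth behind a value cannot be read from it, and neither count tests nor counting intervals were used. Log2(TPM + 1) of genes whose mean reached 1 TPM was fitted with limma 3.58.1 in R 4.3.3 (variance trend, 2 residual degrees of freedom), with treatment and replicate number as terms, and tested on simulated data. Libraries were paired within treatment by the replicate numbers in the titles. The pairs' differences correlated at r = 0.386 to 0.605 over genes listed in all 6 libraries and at 0.265 to 0.383 over all genes tested. These correlations do not show what the number marks.

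Named genes were the 10 largest called rises and the 10 largest called falls at a mean of 5 TPM or more, up to 4 members of each of 33 lists by p, 10 fixed genes and 5 by the control-against-duplex term, and further members are given to describe their lists. The members and lists were chosen with earlier results of these data known. Symbols were matched to GENCODE 29 (12635 by symbol, 320 by another symbol, 445 not matched) and promoters taken from RefSeq (GRCh38.p14). Alternatives covered pseudocount, filter, scaling, composition, variance trend, treatment term, replicate block and each library left out. Values of some single genes are not reported here.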

Additional observations from a re-analysis of the deposited data

Results flagged for a closer look

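The replicate difference differed between the control pair and the duplex pairs in 154 genes by the model term itself, and 38 of them belong to the interferon list. Of the 154, 26 were small RNAs and 25 were not listed in some libraries. The 5 genes with the smallest p were mostly of that kind. SNORA10 (term -7.54) was at 11.0, 0 and 0 TPM in replicate 1 and 0, 13.0 and 16.1 TPM in replicate 2, and SNORA22 (term 5.18) at 0, 17.9 and 0 TPM in replicate 1 and 29.4, 12.2 and 0 TPM in replicate 2. U2AF1L5, a near-identical copy of the splicing factor gene U2AF1 (term 3.76), was at 1.19, 34.1 and 1.89 TPM in replicate 1 and 12.1, 12.8 and 0.440 TPM in replicate 2. MIR499A (term -4.68) was listed in the control replicate 1 library alone, at 24.6 TPM, and SNORA20 (term 4.16) in the control replicate 2 library alone, at 16.9 TPM. A value of 0 here means that the symbol was not listed.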

How the results depend on the processing

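Of 1259 genes called in replicate 2 against replicate 1, the count was 2513 with a length and GC correction (chosen after seeing the data), 6 with no filter on low values (4443 at an unadjusted p under 0.05) and 290 with no treatment term. It ran from 169 to 1680 with single libraries left out, lowest without a 3p.1 duplex library, where 156 or 157 of the 1259 genes were shared. Both pseudocounts, a 5 TPM minimum, the scalings, no variance trend and only symbols listed in all libraries (also chosen after seeing the data) gave 897 to 1615. The 154 genes of the control-against-duplex term became 275 at a 5 TPM minimum, 101 with no variance trend, 405 with only symbols listed in all libraries and 0 with no filter (1414 at an unadjusted p under 0.05). No library can be left out of that term, since that would remove the control difference or leave no residual degree of freedom. The replicate block took the 5p duplex comparison from 62 to 367 genes and the 3p.1 duplex comparison from 2 to 30. Of 107 named genes called, 104 lost their call with no filter, 68 with no treatment term and 73 without a 3p.1 duplex library, and the other alternatives cost 0 to 36. None of the 107 changed sign, but many alternatives could not change one. Called genes moved the same way in all 3 pairs, so leaving out a library keeps the sign. The filter, variance trend and treatment term leave the difference itself as it is. List medians of NRF2 ran from -0.40 to -0.36, of G2/M from 0.25 to 0.30, of p53 targets from -0.29 to -0.23 and of the matrix from 0.19 to 0.34 over all alternatives, and that of interferon from -0.14 to 0.67. With no variance trend 10 NRF2 genes and 7 p53 targets fell and 11 G2/M genes rose. Why these counts move was not tested. The limits are 3 pairs, an unknown depth and 2 residual degrees of freedom.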
